A study of Mus musculus with 6 samples.

Results

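The nuclear genes of the mitochondrial respiratory chain and ATP synthase were followed in liver CD8+ T cells. The members were all probes, controls apart, whose gene name starts with Nduf, Uqcr, Atp5, Cox4 to Cox8, or Sdh followed by a, b, c or d. The rule used names alone and took 139 of 41174 probes, which carried 94 of 27376 gene names. Of these, 90 genes were measured well enough to be tested, among 16395 tested in all. The mice were C57BL/6 females of 13 to 14 weeks, kept free of specific pathogens, and their liver CD8+ T cells had been sorted. Mice of the TGC3 group had the dnTGFβRII transgene, which encodes a dominant negative receptor II for TGF-beta, and lacked the chemokine receptor CXCR3 (CXCR3-/-). Mice of the TG group carried dnTGFβRII alone, so that both groups shared the block of TGF-beta signalling, and no animal without the transgene was used here. Each group had 3 samples, read on 1 one-colour Agilent array each and named here by group and replicate.

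The respiratory chain passes electrons from NADH (through complex I) and succinate (through complex II) to ubiquinone, complex III and cytochrome c, and complex IV hands them to oxygen. Complexes I, III and IV pump protons across the inner mitochondrial membrane, and ATP synthase, also called complex V, makes ATP from their return. Resting T cells draw most of their ATP from this pathway, and activated T cells raise it together with glycolysis. The few subunits encoded by mitochondrial DNA are not covered by these names. Of the members tested, 78 encoded subunits of the 5 complexes and 10 encoded factors that help to assemble them. The other 2, Atp5s and the pseudogene Atp5c1-ps, were counted apart.

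All values below are log2 processed signals with the 75th percentile of their array set to 0, called scaled log2 signal. A difference is TGC3 minus TG on that scale, with its standard error from limma, and a gene passed the threshold when its two-sided p, adjusted by Benjamini-Hochberg across the 16395 genes tested, was under 0.05. The share of probes well above background ranged from 58.9% to 63.8% over the arrays. Cxcr3, the gene removed in TGC3, read -4.64, -4.21 and -4.53 in TGC3 against 6.94, 6.85 and 6.89 in TG, as the labels have it. Each group had a slide and a scanning run of its own, and for every difference below, slide and genotype cannot be told apart. The labels do not say whether the samples came from separate mice, and the p-values then measure only the spread between these samples.

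The promoters of members with and without a change in the arrays are shown first, since nuclear respiratory genes are known targets of NRF1, of ETS factors such as GABP, and of YY1. By accession or symbol, 93 and 1 of the 94 names matched a RefSeq gene, and 3 of them have newer symbols (Atp5f1 is Atp5pb, Atp5s is Dmac2l and Atp5sl is Dmac2). Promoter sequences from RefSeq (GRCm38.p6) were at hand for 78 member genes in 84 windows, each from 250 bases before to 50 bases after a gene's start. Below are the 120 bases before the start of Cox7c and Sdhaf1, which were higher in TGC3, of Atp5e, Ndufs6, Ndufaf4 and Atp5s, which were lower, and of Sdhd and Cox6a1, which did not pass the threshold. Capitals mark motif letters: GCGCA, any base and GCGC for NRF1, CCGGAAG for ETS factors and AAGATGGC for YY1, each searched on both strands.
Cox7c: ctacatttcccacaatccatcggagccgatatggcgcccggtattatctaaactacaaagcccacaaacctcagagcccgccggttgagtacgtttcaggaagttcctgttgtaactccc
Sdhaf1: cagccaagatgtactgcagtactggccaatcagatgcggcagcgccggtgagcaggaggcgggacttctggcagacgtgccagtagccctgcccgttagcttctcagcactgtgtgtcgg
Atp5e: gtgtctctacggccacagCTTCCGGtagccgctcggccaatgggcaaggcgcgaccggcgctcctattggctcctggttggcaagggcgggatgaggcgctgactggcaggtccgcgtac
Ndufs6: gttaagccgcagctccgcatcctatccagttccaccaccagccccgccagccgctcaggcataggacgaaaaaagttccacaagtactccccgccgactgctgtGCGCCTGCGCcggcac
Ndufaf4: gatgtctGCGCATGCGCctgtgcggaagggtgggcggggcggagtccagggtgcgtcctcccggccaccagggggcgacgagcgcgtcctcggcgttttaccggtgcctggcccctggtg
Atp5s: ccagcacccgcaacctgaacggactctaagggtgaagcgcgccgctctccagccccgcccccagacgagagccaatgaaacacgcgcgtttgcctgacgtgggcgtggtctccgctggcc
Sdhd: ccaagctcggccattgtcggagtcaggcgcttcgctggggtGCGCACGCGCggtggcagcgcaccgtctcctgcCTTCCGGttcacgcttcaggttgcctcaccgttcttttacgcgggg
Cox6a1: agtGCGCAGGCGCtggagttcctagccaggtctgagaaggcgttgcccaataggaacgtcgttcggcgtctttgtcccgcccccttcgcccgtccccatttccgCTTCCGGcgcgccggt
These stretches lie, in GRCm38.p6, at chr13:86046796-86046915 (minus strand) for Cox7c, chr7:30322376-30322495 (minus) for Sdhaf1, chr2:174464102-174464221 (minus) for Atp5e, chr13:73328483-73328602 (minus) for Ndufs6, chr4:24897963-24898082 (plus) for Ndufaf4, chr12:69724825-69724944 (plus) for Atp5s, chr9:50603850-50603969 (minus) for Sdhd and chr5:115348959-115349078 (minus) for Cox6a1. Ndufs6 and Ndufaf4 held the NRF1 letters and Atp5e the ETS letters. Sdhd and Cox6a1 held both kinds, but were picked for print among members without a call because these stretches held more than 1 kind. The windows of Cox7c and Atp5s held none of the 3 motifs, and that of Sdhaf1 held the ETS letters only after the gene's start. The window of Ndufs6 also held the YY1 letters, after the gene's start. In all, 1 of the 2 genes higher in TGC3, 4 of the 5 lower ones and 38 of the 69 without a call had at least 1 of the 3 in a window, so that motifs occurred with calls of either direction and with none.

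Over all member windows, 23.8% held the NRF1 letters, against 4.6% of all 32851 promoter windows of the same length. The ETS letters stood in 22.6% of member windows against 8.86% of all windows, and the YY1 letters in 14.3% against 2.75%. At least 1 of the 3 stood in 53.6% of member windows and in 14.7% of all windows, and 6 member windows held more than 1 kind, with 0 in which 2 kinds overlapped. Member windows were also richer in G and C, with a median of 58.5% against 52.7%. The windows of members that did not pass the threshold in the arrays held the NRF1 letters in 24.3%, the ETS letters in 23.0% and the YY1 letters in 12.2%, so that these letters were common among genes that showed no call. A match to these letters is a description of the sequence and not a measured binding site.

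Few members differed between TGC3 and TG. Of the 90 tested, 2 were higher in TGC3 (Cox7c and Sdhaf1), 5 were lower (Ndufaf4, Atp5s, Atp5e, Atp5sl and Ndufs6), and 83 passed in neither direction (limma, adjusted p under 0.05). That is 7.78% of members, against 26.1% of all genes tested, of which 16.6% were higher and 9.48% lower. At an unadjusted p under 0.05 there were 14 members (15.6%), against 40.1% of all genes. The differences ran from -0.38 to 0.49, with a median of -0.08 against -0.01 over all genes. In bulk RNA, fewer cells of a type and less RNA per cell cannot be told apart.

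The intervals around these differences rest on the spread between arrays within the groups, under 1 scaling. The 95% confidence interval lay within a 2-fold change for all 90 members, against 86.1% of all genes, and within a 1.5-fold change for 88 of 90, against 64.8% of all genes. Within ±0.25, or 1.19-fold, it lay for 24 of 90 members, against 14% of all genes. Among the brightest 10% of all genes, the median standard error was 0.074 for members and 0.072 for all genes. Members were thus no more precise than genes of like signal. The choice of scaling or background correction is not covered: the median difference was -0.26 with median centring and 0.32 with normexp. With normexp after 7 aberrant spot backgrounds on TG 3 were replaced, chosen after seeing the data, it was -0.08.

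Most members are bright on this array: 60 of 90 fell in the brightest 10% of all genes by mean signal. Changes over all genes depended on signal, with a median of 0.33 in the dimmest 10% and -0.08 in the brightest 10%. Of the 60 members in the brightest 10%, 2 passed the threshold (3.33%), against 283 of its 1640 genes (17.3%). The median difference there was -0.10 for members and -0.08 for all genes. Differences below 0 were seen for 70 of 90 members, for 1194 of the 1640 brightest genes and for 8426 of all 16395 genes.

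**Figure D1:**
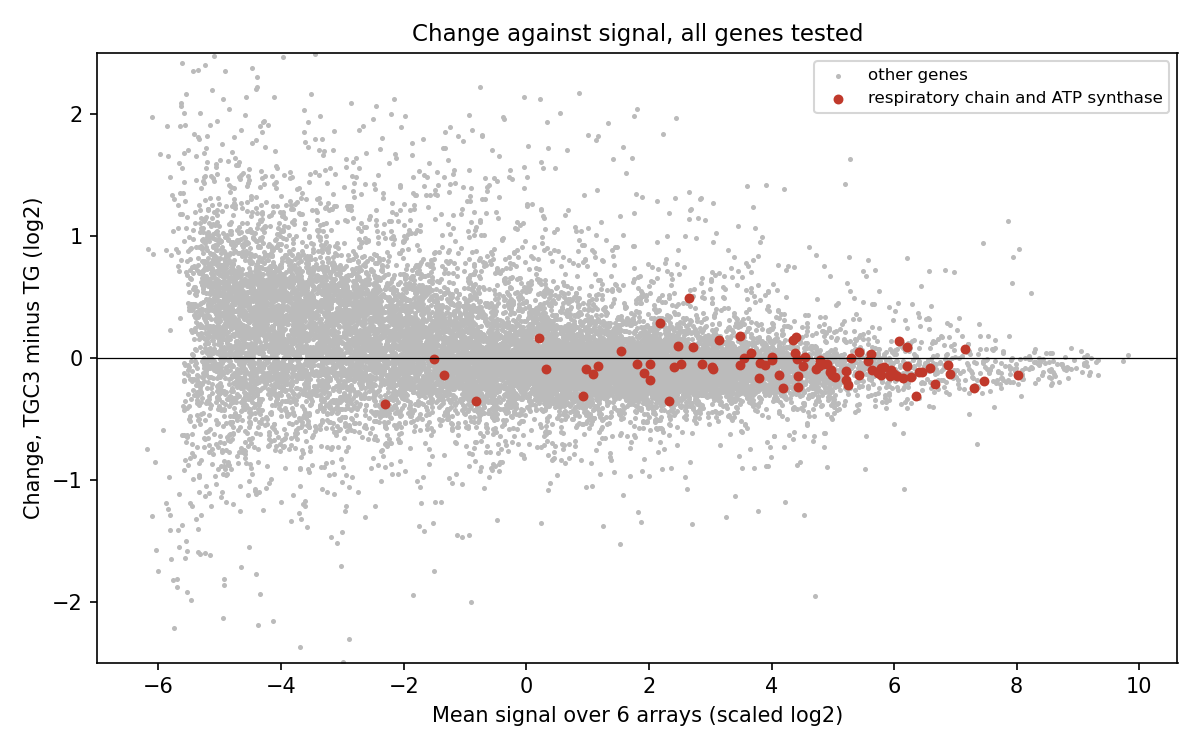
Difference between TGC3 and TG (log2, vertical axis) against mean scaled log2 signal over 6 arrays (horizontal axis) for all genes tested, with the 90 respiratory chain and ATP synthase genes in red and 63 genes beyond the vertical axis not drawn. The members lie mostly at the bright end, between -0.38 and 0.49.

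**Figure D2:**
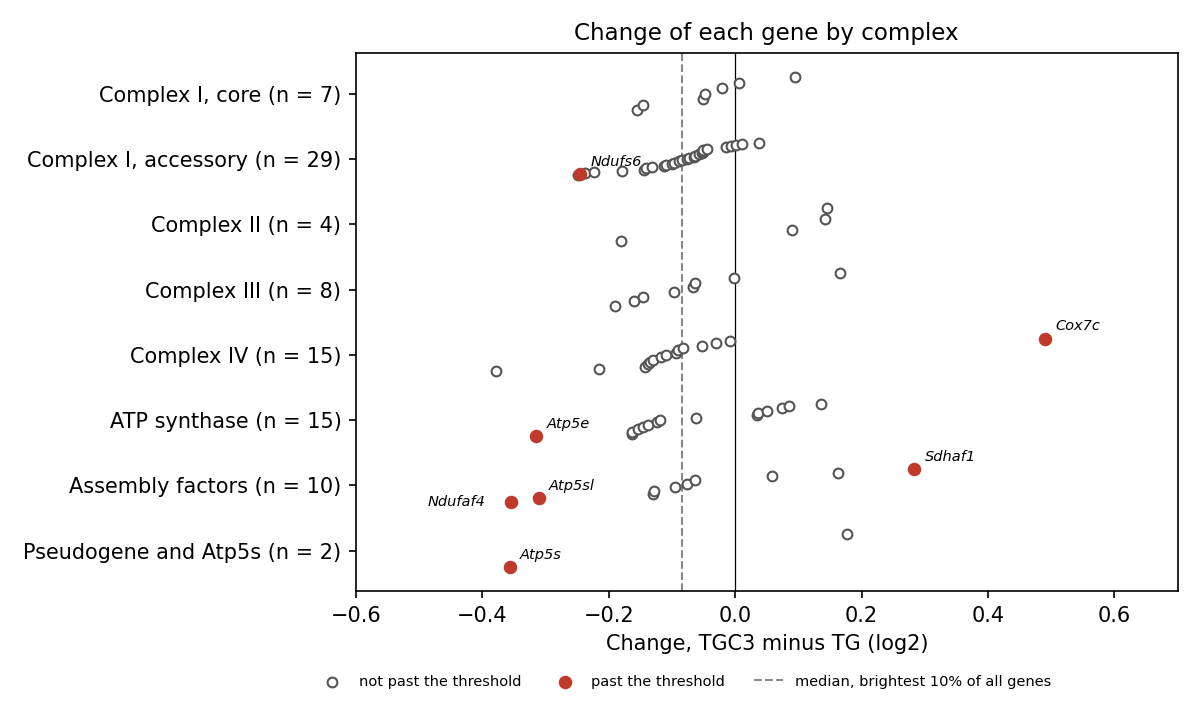
Difference between TGC3 and TG (log2) for each tested member, in rows by complex. Filled red points passed the threshold, open points did not, and the dashed line is the median of the brightest 10% of all genes (-0.08). Only Cox7c, Sdhaf1, Ndufs6, Atp5e, Ndufaf4, Atp5sl and Atp5s passed.

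Complex I, the entry for NADH, had 36 subunits tested, of which 1 was lower in TGC3 and 0 were higher, with a median difference of -0.07. Its 7 core subunits, which carry the flavin and the iron-sulphur clusters, gave no call (limma), and 0 of them had an unadjusted p under 0.05. Ndufv1, which binds NADH and the flavin, had 3.93, 4.07 and 3.98 in TGC3 against 4.00, 4.04 and 4.01 in TG, with overlapping groups and a difference of -0.02 ± 0.06 (95% interval -0.17 to 0.13). The large iron-sulphur subunit Ndufs1 had 4.00, 4.18 and 3.95 in TGC3 against 4.11, 4.13 and 4.33 in TG, and these groups overlapped too (-0.15 ± 0.10, adjusted p = 0.303). Ndufs7, which carries the last cluster before ubiquinone, was the 1 core subunit with separate groups: it had 4.98, 4.99 and 4.89 in TGC3 against 5.12, 5.02 and 5.18 in TG (-0.16 ± 0.07, adjusted p = 0.145). Ndufs8, which carries clusters on the way to ubiquinone, differed by -0.05 ± 0.12, Ndufs3 of the peripheral arm by 0.01 ± 0.06, and Ndufv2, which sits beside Ndufv1, by 0.09 ± 0.09.

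Of 29 accessory subunits of complex I, only Ndufs6 passed the threshold. Ndufs6, a zinc-binding subunit of the peripheral arm, had 4.06, 4.13 and 4.03 in TGC3 against 4.32, 4.23 and 4.40 in TG, so that every TGC3 array lay below every TG array. The difference was -0.25 ± 0.07 (adjusted p = 0.0454), or 1.19-fold lower in TGC3. The call was lost without any 1 of the 6 arrays (adjusted p between 0.0519 and 0.124), and 1 of its 3 kept probes, which maps in mm9 over more bases than a probe holds, gave 0.04 ± 0.16. Ndufa13, also known as GRIM-19, had 7.14, 7.32 and 7.07 in TGC3 against 7.43, 7.36 and 7.48 in TG, groups that were separate by a small margin (-0.25 ± 0.08, adjusted p = 0.0756). Ndufb3 and Ndufa5 were also separate, at -0.24 ± 0.08 and -0.18 ± 0.06 (adjusted p = 0.0738 and 0.0759). Of the 29, 26 had a difference below 0, and the smallest in size was that of Ndufa9 (0.00 ± 0.07).

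Complex II oxidises succinate and is also an enzyme of the citric acid cycle. None of its 4 subunits passed the threshold, and 1 (Sdha) had an unadjusted p under 0.05, but its median difference was 0.12, whereas the medians of complexes I, III, IV and V lay below 0. Sdha, the flavoprotein, had 1.94, 1.99 and 1.85 in TGC3 against 2.13, 2.04 and 2.17 in TG (-0.18 ± 0.07, adjusted p = 0.105). Sdhb, the iron-sulphur subunit, had 3.16, 3.32 and 3.18 in TGC3 against 3.08, 3.00 and 3.13 in TG (0.15 ± 0.07, adjusted p = 0.191). Sdhd, a membrane anchor whose promoter is printed above, had 4.42, 4.48 and 4.35 in TGC3 against 4.23, 4.24 and 4.35 in TG (0.14 ± 0.07, adjusted p = 0.172). The groups did not overlap for these 3 genes, and the brightest probe of Sdha ran opposite to Sdhb and Sdhd. The other kept probes of Sdha gave 0.05 ± 0.07 and -0.16 ± 0.10. Sdhc, the other anchor, had overlapping groups (0.09 ± 0.06). Without such overlap were 33.3% of members in all (23 lower and 7 higher in TGC3), against 46.7% of all genes (22.4% lower and 24.3% higher).

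Complex III, which passes electrons from ubiquinone to cytochrome c, had 8 subunits tested and no call, 2 with an unadjusted p under 0.05 (limma), and a median of -0.08. Its Rieske iron-sulphur protein Uqcrfs1 had 4.48, 4.52 and 4.43 in TGC3 against 4.26, 4.35 and 4.32 in TG, with every TGC3 array above every TG array (0.17 ± 0.06, adjusted p = 0.0899). The hinge protein Uqcrh had 7.38, 7.44 and 7.27 in TGC3 against 7.60, 7.56 and 7.50 in TG, separate in the other direction (-0.19 ± 0.07, adjusted p = 0.100). The 2 core proteins Uqcrc1 and Uqcrc2 differed by -0.07 ± 0.06 and -0.00 ± 0.08, with overlapping groups.

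**Figure D3:**
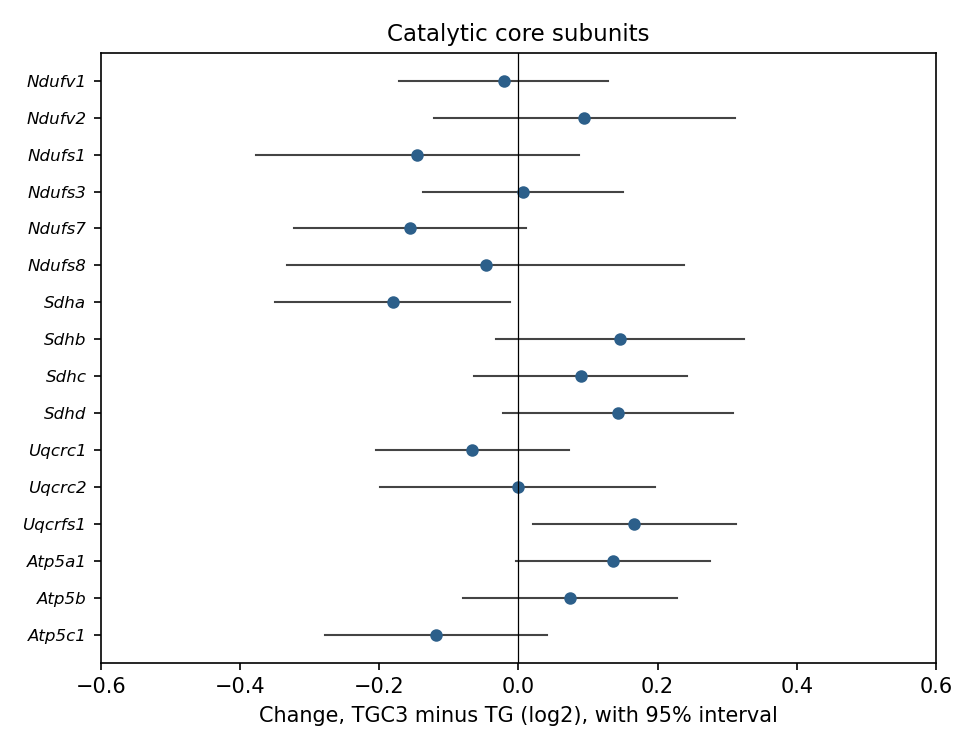
Difference between TGC3 and TG (log2, points) with its 95% confidence interval (lines) for subunits of the catalytic core of complexes I, II, III and V. The intervals lie between -0.38 and 0.33, and those of Sdha and Uqcrfs1 exclude 0, at unadjusted confidence.

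Complex IV, cytochrome c oxidase, held the largest change among the members. Cox7c, one of its small nuclear subunits, had 2.86, 3.03 and 2.79 in TGC3 against 2.40, 2.39 and 2.42 in TG. All TGC3 arrays lay above all TG arrays, by more than the spread within either group. The difference was 0.49 ± 0.08 (95% interval 0.30 to 0.68, adjusted p = 0.0085), or 1.40-fold higher in TGC3, and the call held without any 1 array (adjusted p between 0.0125 and 0.0354). Cox7c rests on a single probe, which maps in mm9 to chr13:86184486-86185363 (minus strand), a span of 878 bases that is longer than the probe and so crosses an intron.

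The other 14 subunits of complex IV passed in neither direction, and all 14 had a difference below 0. The subunit Cox8a had 6.60, 6.66 and 6.43 in TGC3 against 6.76, 6.74 and 6.84 in TG (-0.21 ± 0.08, adjusted p = 0.0982), with separate groups. Cox4i1, the common form of subunit 4, had 6.86, 6.93 and 6.76 in TGC3 against 6.92, 6.97 and 7.05 in TG, and there the groups overlapped (-0.13 ± 0.07, adjusted p = 0.235). Cox6a1, Cox5a, Cox5b and Ndufa4, a subunit once assigned to complex I, lay between -0.14 and -0.08. Cox7a2l, which takes part in supercomplexes, and Cox7a2 differed by -0.05 ± 0.07 and -0.03 ± 0.08.

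Several subunits of complex IV have forms made mainly in other tissues. Cox4i2 (lung), Cox8b (heart and skeletal muscle), Cox8c (testis) and Cox7b2 were well above background on 0 of 6 arrays and were not tested. Cox6a2 and Cox7a1, the heart and skeletal muscle forms, and Cox6b2, the testis form, were well above background on all 6 arrays. Cox6a2 had -2.86, -2.13 and -2.49 in TGC3 against -2.20, -2.07 and -2.07 in TG, a wide spread within TGC3 (-0.38 ± 0.18, adjusted p = 0.172). Without TGC3 1 the difference was -0.20, and without TGC3 2 it was -0.56 and passed (adjusted p = 0.0361), as it did with median centring and array weights (-0.55 each, adjusted p = 0.0386 and 0.0375). Cox7a1 and Cox6b2 differed by -0.01 ± 0.12 and -0.14 ± 0.15. The groups overlapped for all 3.

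ATP synthase had 15 subunits tested, of which 1 was lower in TGC3 and 0 were higher, with a median of -0.12. Atp5e, the epsilon subunit of the central stalk, had 6.17, 6.33 and 6.10 in TGC3 against 6.47, 6.55 and 6.53 in TG, without overlap. It was 1.24-fold lower in TGC3 (-0.32 ± 0.08, adjusted p = 0.0329). This call was lost without any 1 array other than TGC3 2 (adjusted p between 0.0738 and 0.101). The catalytic head of the enzyme gave small differences of either sign. Atp5a1, the alpha subunit, had 6.14, 6.19 and 6.10 in TGC3 against 6.02, 5.97 and 6.03 in TG (0.14 ± 0.06, adjusted p = 0.131), but its other kept probe gave -0.12 ± 0.07, and the mean of both gave 0.01 (adjusted p = 0.952). Atp5b, the catalytic beta subunit, differed by 0.07 ± 0.06, with its 4 kept probes between -0.34 and 0.11. The gamma subunit Atp5c1, which turns inside the head, had 6.35, 6.44 and 6.26 in TGC3 against 6.47, 6.47 and 6.46 in TG (-0.12 ± 0.07, adjusted p = 0.231).

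Among the genes for the c ring, which make the same mature protein, Atp5g1 and Atp5g2 each differed by -0.16 ± 0.08 and Atp5g3 by 0.08 ± 0.07, and none passed. Of the 15 subunits, 9 had a difference below 0 and 6 above it.

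Among 10 tested assembly factors there were 3 calls (30%), near the 26.1% of all genes. Sdhaf1, needed for the iron-sulphur clusters of Sdhb, had 2.42, 2.38 and 2.18 in TGC3 against 2.06, 1.99 and 2.07 in TG (0.28 ± 0.08, adjusted p = 0.0498), without overlap. It lay next to the threshold, and without any 1 array other than TGC3 3 it was not called (adjusted p between 0.0953 and 0.142). Ndufaf4, an assembly factor of complex I, had 2.14, 2.09 and 2.23 in TGC3 against 2.43, 2.52 and 2.58 in TG (-0.36 ± 0.07, adjusted p = 0.0163). That is 1.28-fold lower in TGC3, with every TGC3 array below every TG array, and the call was lost without TGC3 1 or TG 2 (adjusted p = 0.0548 and 0.0577). Atp5sl, whose human counterpart DMAC2 takes part in assembling the membrane arm of complex I despite its older name, had 0.69, 0.81 and 0.80 in TGC3 against 1.08, 1.07 and 1.08 in TG. It was 1.24-fold lower in TGC3 (-0.31 ± 0.06, adjusted p = 0.0164), and both of its probes passed when probes were tested singly. Its call was lost without TGC3 1, TG 1 or TG 2 (adjusted p between 0.0546 and 0.0586). The other 7, among them Ndufaf1 to Ndufaf3 and Sdhaf2, which helps to attach the flavin of Sdha, lay between -0.13 and 0.16.

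Of the 2 genes counted apart from subunits and assembly factors, Atp5s had -0.93, -0.99 and -1.09 in TGC3 against -0.57, -0.62 and -0.74 in TG. The difference was -0.36 ± 0.08 (limma, adjusted p = 0.0199), again without overlap. Its second probe went the other way (0.19 ± 0.07), and the call was lost without TGC3 3, TG 1 or TG 2 (adjusted p between 0.0606 and 0.0684). The pseudogene Atp5c1-ps differed by 0.18 ± 0.10, and its probe may also take up Atp5c1 RNA, which was not tested.

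**Figure D4:**
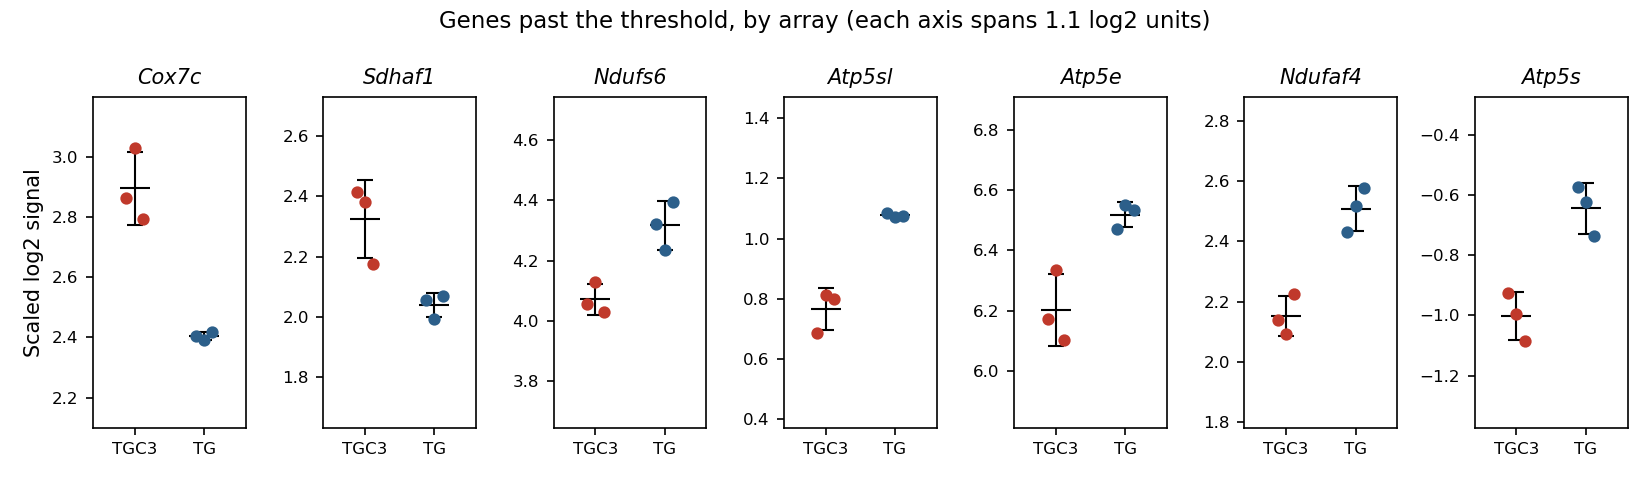
Scaled log2 signal on each array (points) of the 7 genes past the threshold, TGC3 left of TG, with the group mean and SD (n = 3 arrays each). Each panel spans 1.1 log2 units, and in all 7 the TGC3 and TG points do not overlap.

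Probes of one gene did not always give the same value. Tested singly, 15 of the 132 member probes passed the threshold, 3 higher and 12 lower in TGC3, against 22.1% of all probes. Of the 29 genes with more than 1 kept probe, 0 had probes called in both directions, and the median distance between the highest and lowest difference was 0.16. For Ndufab1, the mitochondrial acyl carrier protein, a probe designed on an Ensembl transcript gave -0.83 ± 0.12 (adjusted p = 0.00768), while its brightest probe gave -0.06 ± 0.09. For Ndufb2, an accessory subunit of complex I, such a probe gave -0.67 ± 0.12 and the brightest one -0.11 ± 0.08. Probes designed on Ensembl or clone records passed in 6 of 14 cases (42.9%) among members, and those on RefSeq mRNAs in 9 of 117 (7.69%). Over all probes, 26.4% of those on Ensembl or clone records and 20.3% of those on RefSeq mRNAs passed. The 3 kept probes of Ndufaf4 gave -0.52 ± 0.08, -0.36 ± 0.07 and 0.19 ± 0.34. The last of them read -5.84 to -4.55 and was well above background on only 2 arrays of each group.

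The members moved together from array to array within each group. Over the 78 subunits, the median deviation from the gene's mean over 6 arrays was -0.05, 0.05 and -0.14 on TGC3 1 to TGC3 3, against 0.03, -0.00 and 0.09 on TG 1 to TG 3, and these groups overlapped. TGC3 2 was the highest TGC3 array for 71 of 78 subunits (91.0%), and TGC3 3 the lowest for 69 (88.5%). Among the brightest 10% of all genes these shares were 59.3% and 57.3%. In TG, TG 3 was the highest for 55 subunits (70.5%, against 59.1%) and TG 2 the lowest for 51 (65.4%, against 46.0%). The medians of complexes I, III, IV and V all had their highest TGC3 value on TGC3 2 and their lowest on TGC3 3. The median of complex II followed the same order in TGC3, but lay above 0 on all 3 TGC3 arrays (0.04, 0.06 and 0.02) and below 0 on all 3 TG arrays (-0.04, -0.10 and -0.00). The SD within a group had a median of 0.09 in TGC3 and 0.05 in TG over the subunits. Without TGC3 2 the calls were 1 higher and 8 lower, with 23.6% of all genes past the threshold. Without TG 2 they were 1 higher and 0 lower (2 and 9 at an unadjusted p under 0.05), with 14.5% of all genes past it.

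**Figure D5:**
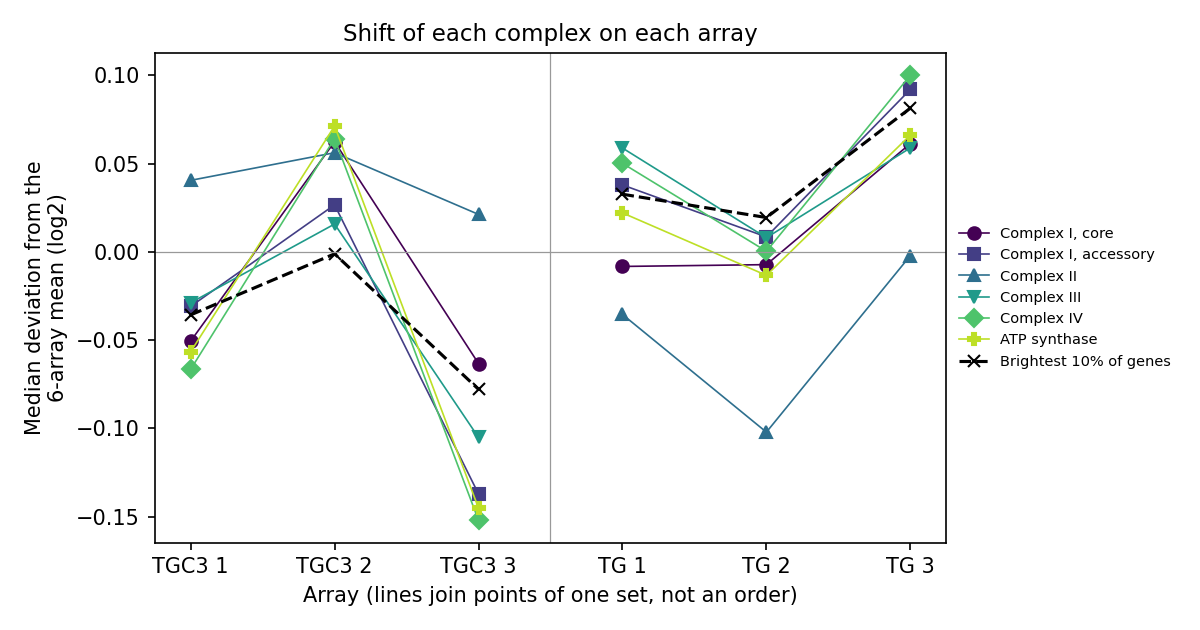
Median deviation of each complex from its genes' 6-array means (log2) on every array, TGC3 left of TG, with the brightest 10% of all genes dashed. In TGC3 all complexes are highest on TGC3 2 and lowest on TGC3 3, and complex II alone lies above 0 on all TGC3 arrays and below 0 on all TG arrays.

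The scaling of the arrays moved the members as a group. Centring each array on its median over all probes gave 1 member higher and 44 lower, with a median of -0.26, while the median of all genes moved to -0.18 and 40.2% of them passed. Quantile normalization gave 5 higher and 4 lower, with a median of -0.02 and 22% of all genes past the threshold. There Atp5a1, Sdhd and Uqcrfs1 passed as higher (limma, adjusted p = 0.0342, 0.0343 and 0.0272), each read by its brightest probe. Cox7c was higher in TGC3 and past the threshold under both.

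Other genes of the pathway, listed apart from the names above, gave calls for up to 16.7% of a list's tested genes, against 26.1% of all genes. Of 6 tested genes for cytochrome c and for complex III outside the name rule, 1 was lower in TGC3: Cyc1, cytochrome c1, at -0.28 ± 0.08 (adjusted p = 0.0398). Of 19 genes for complex IV assembly and copper supply, Cox15 (heme A synthesis) and Cox16 were higher, at 0.37 ± 0.08 and 0.19 ± 0.05, and Cox14 was lower, at -0.32 ± 0.07. The 9 other assembly factors of complex I lay between -0.26 and 0.21 without passing, while 1 of 8 genes for assembly, regulation or nucleotide exchange of ATP synthase was lower (Atpaf1, -0.25 ± 0.07). Of 17 citric acid cycle genes, Idh3b (-0.31 ± 0.07) and Dlst (-0.21 ± 0.05) were lower in TGC3. Medians of these 5 lists lay between -0.07 and -0.00.

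Of 15 tested regulators of mitochondrial gene expression, 1 was higher and 1 lower in TGC3, with a median of -0.03. Tfam, which packages mitochondrial DNA and takes part in starting its transcription, was higher (0.44 ± 0.07, limma, adjusted p = 0.00841). Pprc1, a coactivator related to PGC-1, was lower (-0.43 ± 0.09, adjusted p = 0.0219). The factors whose motifs were searched differed by -0.04 ± 0.16 (Nrf1), 0.13 ± 0.06 (Gabpa) and -0.03 ± 0.07 (Yy1), and none of them passed.

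Markers of other cells also differed between the groups, and their part in these results was not tested. Calls came to 28.6% of tested CD8 T cell markers and 20% of NK cell markers, against 26.1% of all genes. In the B cell, neutrophil, macrophage, dendritic cell and erythroid lists they came to between 50% and 80%. Over all genes, the dimmest 10% had a median difference of 0.33. Of the markers called higher, C1qb, Marco, Flt3 and Hbb-b1 differed by 0.35 to 0.54, and the others by 0.68 to 7.39. How far signal level sets these calls was not tested. The 7 CD8 T cell markers were all measured, with a sum of scaled signals (linear, in units of the array's 75th percentile) of 665 to 720 in TGC3 and 729 to 818 in TG, and 2 of them (Cd3d and Cd3g) were lower in TGC3. Of 8 neutrophil markers 3 were tested (Mmp8 and Cxcr2 were well above background on no array), with sums of 1.49 to 7.88 in TGC3 and 0.0179 to 0.055 in TG, and 2 were higher. Of 10 macrophage markers on the array 5 were tested (C1qa and C1qc were above background on none), with sums of 1.14 to 3.24 in TGC3 and 0.747 to 0.887 in TG, and 3 were higher. Of 7 B cell markers 5 were tested (Pax5 and Blk were above background on no array), with 3 higher and 1 lower and sums of 6.08 to 6.54 in TGC3 and 6.22 to 7.52 in TG. In TG, the B cell marker Ms4a1 read -7.85, -7.82 and -7.76. The neutrophil markers S100a8 and S100a9 read -7.35, -7.34 and -7.26, and -5.27, -7.14 and -5.73 there. Cox4i2 (-7.84, -7.80 and -7.73 in TG) and Cox7b2 (-5.61, -6.76 and -7.40) were well above background on no array. These 3 markers may have met the filter only through their TGC3 arrays, which favours a call of higher. Of 7 dendritic cell markers 4 were tested, without Clec9a, Siglech and Cd209a, and 2 of them were higher, with sums of 14.3 to 23.7 in TGC3 and 18.4 to 20.9 in TG, and of 5 NK cell markers 1 was lower, with sums of 11.7 to 15.6 in TGC3 and 14.9 to 15.9 in TG. Of 4 erythroid markers 2 were tested, while Alas2 was above background on no array, and 1 of the tested ones was higher, with sums of 0.182 to 0.274 in TGC3 and 0.13 to 0.147 in TG, and of 8 hepatocyte markers on the array only Tat was tested and did not pass, while Apoa1, Ttr and Fgb were above background on no array.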

How the data were processed

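Agilent Feature Extraction made the scanner files, in version 10.7.3.1 per the file headers and 10.7.1.1 per the submitters' processing notes. Its processed signal is a deposited intensity, background-subtracted on each array separately. The deposited matrix holds log2 values with a median of 5.57 in each column, and was used as an alternative. How the matrix was made is not given in the sources used here.

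Of 43379 spots that were not controls, outlier flags removed 11 probes, 0 spots were saturated, and spots of a probe were averaged (245 probes). The log2 processed signal minus each array's 75th percentile was used. Probes had to be well above background on 3 or more of the 6 arrays (25103 were), and each gene name was read by its brightest kept probe. Groups follow the genotype labels. TGC3 and TG were compared by limma 3.58.1 (lmFit and eBayes; R 4.3.3, data.table version 1.17.8), adjusted by Benjamini-Hochberg over all 16395 genes, with 95% intervals from the same fit. The number of arrays limits the precision. Figures used Python 3.11.15 with pandas 2.3.3, numpy 2.4.6 and matplotlib 3.10.9. The procedure was tested on simulated data with noise drawn independently for each gene and array. Members here moved together from array to array, which that simulation did not include, and its results are not reported here.

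The members, pathway lists and markers were chosen with earlier results of these data known. Genes named are the catalytic core, isoform families, members past the threshold and, in groups with none, the largest differences, with up to 3 past the threshold from each pathway list. Ndufa13, Ndufb3, Ndufa5, Ndufa9, Cox5a, Cox5b, Ndufab1 and Ndufb2, the assembly factors without a call, Atp5c1-ps, Nrf1, Gabpa and Yy1 were added after their values were seen. Some values under these rules are not reported here. Alternatives were other background correction, scalings, filters, probe rules and limma settings, a replicate block and leaving out each array. Replicate numbers did not pair the samples.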

Additional observations from a re-analysis of the deposited data

How the results depend on the processing

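Without any 1 array, the count of members higher in TGC3 lay between 1 and 2, the count lower between 0 and 8, and the median difference between -0.13 and -0.04. In these fits, between 14.5% and 23.6% of all genes passed the threshold. Normexp background correction gave 0 higher and 0 lower in limma (1 and 0 at an unadjusted p under 0.05) and a median of 0.32, of opposite sign, with 0.0061% of all genes past the threshold. Under it Atp5e (0.11), Ndufaf4 (0.00239) and Ndufs6 (0.14) turned positive, with adjusted p of 0.880, 0.997 and 0.833. After 7 aberrant spot backgrounds on TG 3 were replaced, an alternative chosen after seeing the data, normexp gave 2 higher, 6 lower and a median of -0.08. Counts of members higher were 5 with quantile normalization, with the deposited values and with cyclic loess (also chosen after seeing the data, median -0.01), against 2 as reported, and 1 with median centring, with no filter and with the replicate block. Counts of members lower were 44 with median centring (median -0.26), 0 with no filter (8 at an unadjusted p under 0.05; median of all genes 0.13), 12 with every probe tested, 10 with trend and robust settings, 11 with array weights and 1 with the replicate block, against 5 as reported. All genes past the threshold came to 9.77% with no filter, 22.1% of probes singly, 28.7% with trend and robust settings, 34.6% with array weights and 14.4% with the replicate block, against 26.1% as reported. That share was 22% with quantile normalization, with the deposited values and with cyclic loess. It was 40.2% with median centring and 23.8% with normexp after the replacement. The cause of these shifts was not tested. Of 18 alternatives with 1 value per gene, Cox7c passed the threshold in 17, Atp5s, Atp5sl and Ndufaf4 in 12, Atp5e in 10, Sdhaf1 in 8 and Ndufs6 in 5. Deviations of arrays with the same replicate number correlated at -0.00, -0.08 and -0.10, so the numbers are shared in name only.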
